A study of Mus musculus with 6 samples.

Results

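Genes of the mitochondrial ribosome and of the mitochondrial protein import machinery were followed in cultured mouse embryonic fibroblasts (MEFs), primary connective-tissue cells grown from dissociated embryos. The members were taken by name, as genes on the minus strand whose symbol begins with Mrpl or Mrps (proteins of the large and small ribosomal subunit), Timm (translocase of the inner membrane) or Tomm (translocase of the outer membrane) followed by a number, together with the translation factors Tufm, Tsfm, Gfm and Mtif. The 4 pseudogenes of these names were left out. This gave 48 of 38483 listed genes, comprising 20 genes of the large subunit, 11 of the small subunit, 8 Timm genes, 7 Tomm genes and the 2 translation factors Tsfm and Mtif3. The rule reads gene names and strand.

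RNA-seq compared WT MEFs with MEFs carrying a heterozygous knockout of Nipbl, which encodes a loader of the cohesin ring onto chromosomes and is the gene most often mutated in Cornelia de Lange syndrome. Each genotype had 3 cultures, all of strain CD1, all at passage 3 and all grown in DMEM with fetal bovine serum, and the WT cells came from littermates of the mutants. According to the study's methods, the embryos were taken at the same gestational age from a single pregnant mouse. Limbs, brain and internal organs were removed before dissociation. The sources used here do not say whether each culture came from its own embryo, so the p-values measure the spread between these cultures. RNA was depleted of ribosomal RNA before library preparation, and each library held between 20307454 and 25990783 counts. Each of the 19214 plus-strand genes had a count of 0 in all 6 cultures, so that 58 of the 106 gene names fitting the name rule, Tufm, Gfm1 and Gfm2 among them, were not analysed here. The 48 members are therefore what remained of the machinery, 20 of 47 large-subunit names, 11 of 29 small-subunit names, 8 of 14 Timm names, 7 of 10 Tomm names and 2 of 6 translation factor names.

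Mitochondria keep their own ribosome, which translates the few respiratory chain subunits encoded by mitochondrial DNA, while all of its proteins are encoded in the nucleus and made in the cytosol. These proteins, like most others of the organelle, enter through the TOM complex of the outer membrane. From there the TIM23 complex sends presequence proteins to the matrix, and small Timm chaperones of the intermembrane space escort hydrophobic membrane proteins. Promoters of such housekeeping mitochondrial genes are commonly rich in CpG, and NRF1 and the ETS factor GABP are known regulators of many of them.

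The labels were checked first. Nipbl was measured at 128, 145 and 135 CPM (a gene's count relative to its library total, after scaling with TMM normalisation factors) in the WT cultures and at 101, 101 and 100 CPM in the mutant cultures, with no overlap. The log2 fold change was -0.43 ± 0.06 (SE; adjusted p = 0.0213, edgeR quasi-likelihood test, Benjamini-Hochberg method). The adjusted p rose to 0.0755 without WT culture 1, to 0.0864 without mutant culture 1 and to 0.0772 without mutant culture 2. All 9 fibroblast markers annotated on the minus strand were counted in every culture. Their summed levels were 23211 to 27644 CPM in WT and 24327 to 26748 CPM in the mutant, with Fn1 alone at 14360 to 18188 CPM. Of the 9, Sparc and Prrx1 were lower in every mutant culture than in any WT culture, Fap was higher, and the others overlapped. The 10 macrophage markers with counts, led by Lyz2, summed to 58.2 to 75.6 CPM in WT and 91.9 to 183 CPM in the mutant. Skeletal muscle markers, led by Acta1, summed to 237 to 339 CPM in WT and 294 to 340 CPM in the mutant. The chondrocyte marker Col2a1 was at 119 to 472 CPM in WT and 255 to 319 CPM in the mutant. The part of these cell types in the members' values was not tested. RNA from the whole culture cannot separate fewer cells of a type from less RNA per cell.

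The start regions of the members were searched for short sequence motifs. RefSeq windows of 250 bases before to 50 bases after the annotated start (build GRCm38.p6) were matched by symbol for 38 of the 48 members, in 43 windows because 3 members have several starts. Mrpl13, Mrpl15, Mrpl19, Mrpl38, Mrpl54, Mrps28, Mtif3, Timm21, Tomm40l and Tomm7 were not matched. The 120 bases directly before the start are printed here for 6 members chosen to show each motif found in such a stretch as well as genes from both ends of the range of differences. Capitals mark matches to CGCATGCG (the NRF1 core), to CCGGAAG or its reverse complement CTTCCGG (the ETS core bound by GABP), or to CACGTG (the E-box), on either strand.
Mrpl32 (chr13:14613038-14613157, minus strand): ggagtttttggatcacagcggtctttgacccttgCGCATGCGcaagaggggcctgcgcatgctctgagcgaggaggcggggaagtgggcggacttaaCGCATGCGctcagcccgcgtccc
Mrpl17 (chr7:105811088-105811207, minus strand): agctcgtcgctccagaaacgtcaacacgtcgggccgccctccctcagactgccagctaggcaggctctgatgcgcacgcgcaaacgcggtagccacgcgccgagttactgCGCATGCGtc
Mrpl43 (chr19:45006443-45006562, minus strand): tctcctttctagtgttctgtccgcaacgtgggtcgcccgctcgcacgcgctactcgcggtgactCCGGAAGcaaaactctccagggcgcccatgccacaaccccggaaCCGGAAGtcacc
Timm23 (chr14:32201892-32202011, minus strand): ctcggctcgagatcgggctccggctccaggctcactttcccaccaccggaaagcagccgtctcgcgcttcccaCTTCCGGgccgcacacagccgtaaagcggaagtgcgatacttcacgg
Timm9 (chr12:71136676-71136795, minus strand): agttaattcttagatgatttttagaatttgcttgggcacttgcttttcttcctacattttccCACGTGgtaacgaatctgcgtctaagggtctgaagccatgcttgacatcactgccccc
Mrpl42 (chr10:95501950-95502069, minus strand): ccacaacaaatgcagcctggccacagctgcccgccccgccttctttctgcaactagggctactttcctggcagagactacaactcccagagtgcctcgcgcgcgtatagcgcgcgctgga

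Mrpl32 carries the NRF1 core at 2 places in this stretch, Mrpl43 carries the ETS core at 2 places, and the stretch of Mrpl42 has no capitals because its letters match none of these motifs. Over the whole windows, the NRF1 core was found in 5 of 43 windows of the members (11.6%) and in 1.87% of all 32851 RefSeq windows of the genome. The ETS core stood in 30.2% of the members' windows against 8.86% of all windows. The YY1 core AAGATGGC stood in 18.6% against 2.75%, and the GC box GGGCGG in 67.4% against 35.7%. The E-box was found in 9.30% against 7.15%, CCAAT in 44.2% against 37.4%, and TATAAA in 14.0% against 13.6%. The median GC content of the members' windows was 58.0% against 52.7%, and the median number of CpG dinucleotides was 22 against 7. Of these motifs only the GC box stood in most windows of the members. Whether the higher shares go beyond those of other windows equally rich in CpG was not tested. These matches describe letters in a window and say nothing on binding in these cells. The windows of Tomm34 overlap each other, as do those of Mrps16, so that not all windows are independent of each other.

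No member passed the test for a change between the genotypes. All 48 passed the filter on low counts, with counts between 276 and 10115 per culture, and 0 rose and 0 fell at an adjusted p below 0.05 in the edgeR quasi-likelihood test (Benjamini-Hochberg method, 9061 genes). In the same test 1.04% of all genes rose and 0.916% fell, which is 94 and 83 genes. The smallest adjusted p of a member was 0.143, for Mrpl54. DESeq2's Wald test and edgeR's exact test also called 0 members. At an unadjusted p below 0.05 stood 4 members, or 8.33%, against 16.9% of all genes tested. All 3 mutant cultures lay above all 3 WT cultures for 2 members (4.17%, against 12.0% of all genes), and below them for 3 members (6.25%, against 10.8%).

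The differences were small as well as uncalled. The median log2 fold change of the members was -0.00 (25 below 0 and 23 above), beside -0.01 for all genes tested. With library size alone as the scaling it was 0.04 (19 below 0 and 29 above), beside 0.03 for all genes tested. With TMM factors single members ranged from -0.23 to 0.24. The SD of the log2 fold changes was 0.09 over the members and 0.32 over all genes, and it was 0.18 over the 4900 other genes within the members' range of average expression. The 95% interval of the log2 fold change, not adjusted for the number of genes, lay within 1.5-fold in both directions for all 48 members. The widest bounds were -0.45 for Timm9 and 0.44 for Timm21. The same held for 68.4% of all genes tested and for 93.1% of the genes in the same expression range. A change of 1.5-fold or more thus lay outside the interval of each member, whereas a change of a few percent was not detectable with 3 cultures per genotype.

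**Figure D1:**
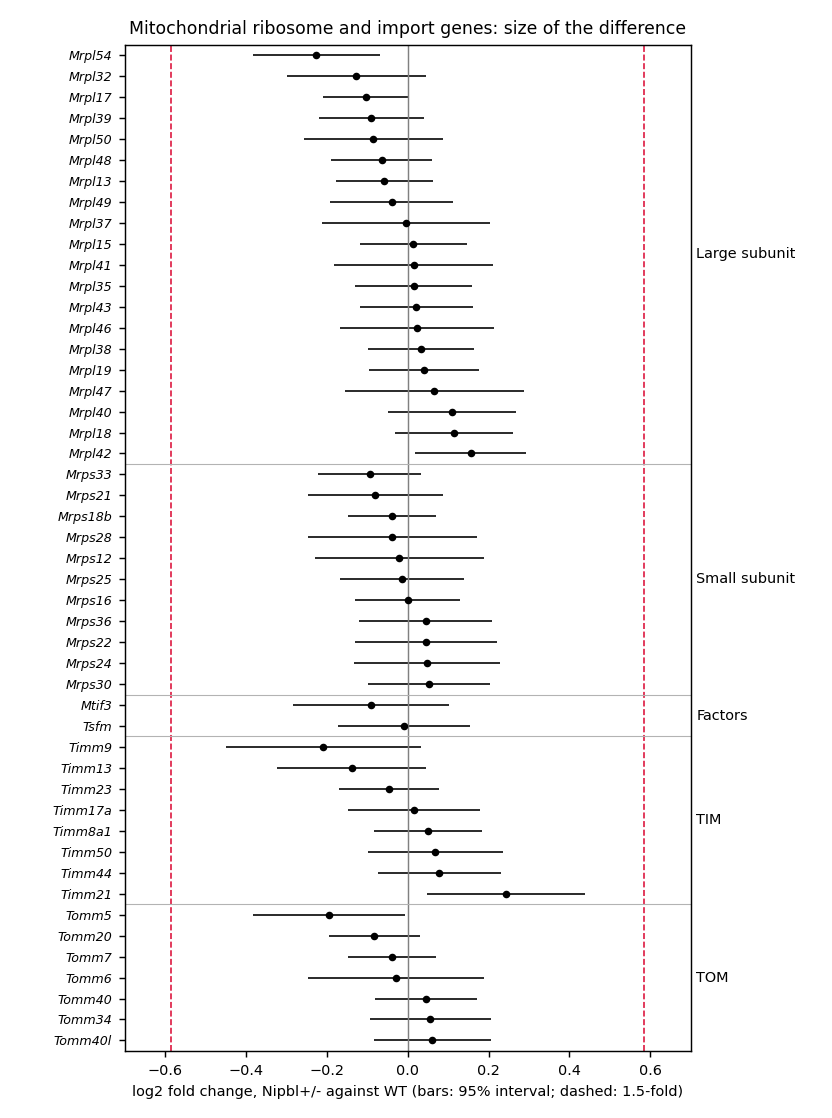
Log2 fold change of Nipbl+/- against WT for each of the 48 members (points) with its 95% interval (bars), in 5 groups by role and ordered by size within each. The x axis is in log2 units, dashed lines mark 1.5-fold, and every bar lies between them, with Mrpl54 at -0.23 and Timm21 at 0.24 as the outermost points.

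For the large subunit (Mrpl genes) the median log2 fold change was 0.01, with 11 of 20 above 0. Their summed level was 847, 837 and 815 CPM in the WT cultures and 810, 846 and 805 CPM in the mutant cultures, so the genotypes overlapped. Mrpl54 stood lowest of all members. It was measured at 58.2, 51.5 and 54.1 CPM in WT and at 46.6, 49.7 and 43.7 CPM in the mutant, where all cultures lay below the WT cultures. Its log2 fold change was -0.23 ± 0.07 (SE). Mrpl32, whose precursor must be cleaved inside the mitochondrion before it can join the ribosome, was at 40.4, 39.8 and 35.3 CPM in WT and at 35.8, 36.9 and 33.0 CPM in the mutant. The third WT culture lay among the mutant cultures, and the log2 fold change was -0.13 ± 0.07 (adjusted p = 0.436).

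At the other end of the large subunit stood Mrpl42, with 41.7, 46.1 and 41.4 CPM in WT and 47.9, 48.8 and 47.2 CPM in the mutant. The genotypes did not overlap, and the log2 fold change was 0.16 ± 0.06 (unadjusted p = 0.0303, adjusted p = 0.242). Mrpl18 belongs to the part of the ribosome that in bacteria binds the 5S rRNA, and it was at 45.5, 43.2 and 42.7 CPM in WT and at 44.0, 49.95 and 48.2 CPM in the mutant. Its first mutant culture lay within the WT values. Mrpl40 was at 26.3, 28.8 and 28.4 CPM in WT and at 28.6, 31.2 and 30.3 CPM in the mutant, again with overlap. The log2 fold changes of Mrpl18 and Mrpl40 were 0.11 ± 0.06 and 0.11 ± 0.07 (adjusted p = 0.415 and 0.467). Mrpl17, chosen here after its values were seen because it is the remaining gene of this subunit without overlap, was at 71.7, 66.7 and 70.6 CPM in WT and at 64.6, 65.5 and 64.5 CPM in the mutant. Its 95% interval ran from -0.21 to 0.00 around a log2 fold change of -0.10, and the other 14 genes of this subunit had log2 fold changes between -0.09 and 0.07.

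The small-subunit genes were closest together. Their log2 fold changes ran from -0.09 (Mrps33) to 0.05 (Mrps30), with a median of -0.01 and 7 of 11 below 0. No member of this subunit separated the genotypes or reached an unadjusted p below 0.05. Mrps16, the highest of them per length by the deposited values, was at 34.2, 33.2 and 34.3 CPM in WT and at 33.4, 34.9 and 33.4 CPM in the mutant. Its means were 33.9 CPM in both genotypes, and its interval ran from -0.13 to 0.13. The summed level of the subunit was 401, 387 and 380 CPM in WT and 391, 383 and 379 CPM in the mutant. Mrps30 bears a small-subunit name, but structures of the mammalian ribosome place it in the large subunit. Mrps36 has likewise been reassigned, to the 2-oxoglutarate dehydrogenase complex of the matrix, and it had a log2 fold change of 0.04.

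Of the translation factors on the minus strand, Tsfm, the exchange factor that recharges the elongation factor Tufm with GTP, was at 22.1, 23.1 and 21.02 CPM in WT and at 22.0, 22.6 and 21.2 CPM in the mutant. Its values overlapped almost fully, with a log2 fold change of -0.01 ± 0.07. Mtif3, the initiation factor that acts on the small subunit before the first codon is read, was at 13.7, 13.8 and 14.8 CPM in WT and at 13.4, 13.1 and 13.2 CPM in the mutant. All of its mutant cultures lay below the WT cultures, but the distance was small against the spread of the fit. Its log2 fold change was -0.09 ± 0.08 (adjusted p = 0.640).

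The inner-membrane and intermembrane-space genes (Timm) held the highest and one of the lowest values of all members. Timm21, a subunit of TIM23 that contacts the TOM complex, was at 14.9, 14.2 and 15.4 CPM in WT and at 17.9, 16.4 and 18.4 CPM in the mutant. The mutant cultures all lay above the WT cultures, and the log2 fold change was 0.24 ± 0.09 (unadjusted p = 0.0207, adjusted p = 0.200). Its partner Timm44, which tethers the matrix Hsp70 motor to the channel, was at 45.8, 46.8 and 51.3 CPM in WT and at 53.5, 50.6 and 47.7 CPM in the mutant. These values overlapped, with a log2 fold change of 0.08 ± 0.07. The channel-forming subunits Timm23 and Timm17a had log2 fold changes of -0.05 and 0.02, and the presequence receptor Timm50 had one of 0.07.

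The small chaperones of the intermembrane space had values on both sides of 0. Timm9, which works in a ring with Timm10, was at 17.9, 19.8 and 15.5 CPM in WT and at 14.7, 15.9 and 15.4 CPM in the mutant. Timm13, which pairs with a Timm8 protein, was at 64.9, 52.7 and 62.1 CPM in WT and at 54.9, 56.4 and 51.8 CPM in the mutant. In each case a WT culture lay inside the mutant range, and the log2 fold changes were -0.21 ± 0.11 and -0.14 ± 0.08 (adjusted p = 0.363 and 0.428). Timm8a1, a partner of Timm13, had a log2 fold change of 0.05. The median over the 8 Timm genes was 0.03.

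For the outer-membrane genes (Tomm) the median log2 fold change was -0.03. Tomm5, a small subunit that helps assemble the TOM pore, was at 66.4, 64.6 and 56.1 CPM in WT and at 50.2, 59.2 and 54.0 CPM in the mutant. A single mutant culture exceeded the lowest WT culture, and the log2 fold change was -0.20 ± 0.08 (unadjusted p = 0.0439, adjusted p = 0.282). Tomm20, the receptor that first recognises presequences, was at 406, 409 and 379 CPM in WT and at 369, 387 and 373 CPM in the mutant. The second mutant culture lay above the third WT culture, and the log2 fold change was -0.08 ± 0.05. The pore protein Tomm40 and its paralogue Tomm40l had log2 fold changes of 0.05 and 0.06, those of the small subunits Tomm6 and Tomm7 were -0.03 and -0.04, and that of the cytosolic cochaperone Tomm34 was 0.06. The pore and the small subunits Tomm6 and Tomm7 differed by less than their standard error.

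**Figure D2:**
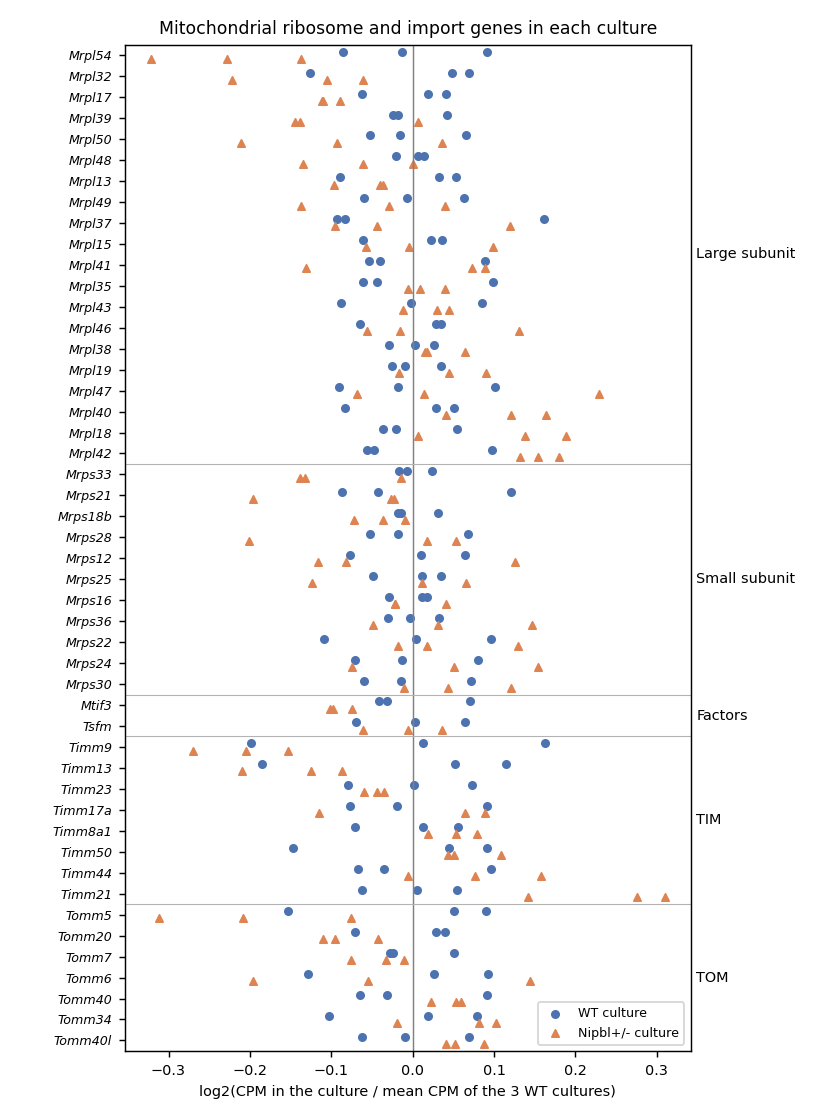
CPM of each member in each of the 6 cultures as the log2 ratio to the mean of the 3 WT cultures (x axis), with WT cultures as circles and Nipbl+/- cultures as triangles. The circles and triangles overlap for 43 of the 48 genes, and no culture lies apart over all genes.

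Summed over all 48 members, the level was 2610, 2585 and 2476 CPM in WT and 2507, 2560 and 2459 CPM in the mutant. The means were 2557 ± 71.2 and 2508 ± 50.1 CPM (SD, n = 3), a difference of -1.91%, and the genotypes overlapped. With library size alone as the scaling the mutant mean was 0.737% higher, so the sign of this difference turned with the scaling. The cultures differed from each other by about as much within a genotype, since the median log2 ratio of the members to the WT mean was lowest in the third WT culture (-0.03) and in the third mutant culture (-0.04) and highest in the first WT culture and the second mutant culture (0.03 in each). The outer-membrane genes summed to 751 ± 29.8 CPM in WT and 724 ± 13.4 CPM in the mutant, -3.60% with TMM scaling and -0.976% with library size alone. The median coefficient of variation of a member over 3 cultures was 4.78% in WT and 4.80% in the mutant, where 3.38% would come from counting alone.

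**Figure D3:**
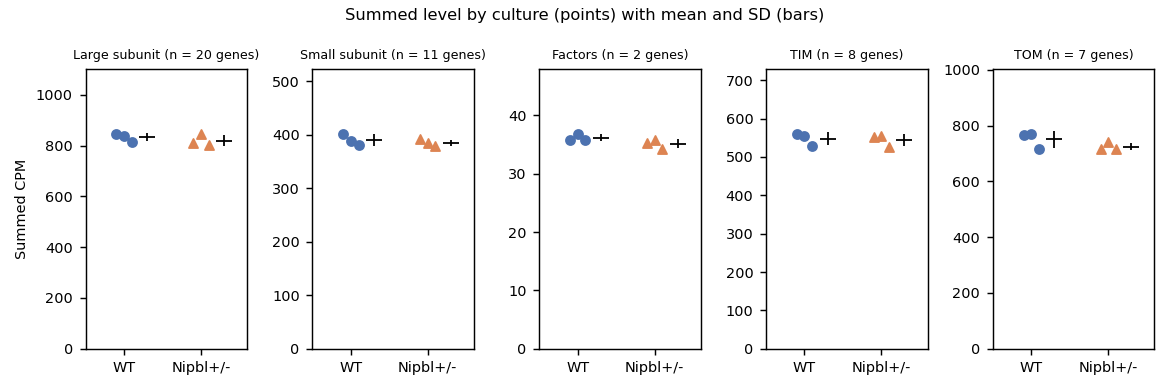
Summed CPM of the members of each of the 5 groups in each culture, with WT as circles, Nipbl+/- as triangles, and the mean and SD of 3 cultures beside them; each y axis starts at 0. The genotypes overlap in every group but the translation factors, whose lowest WT sum and highest mutant sum both round to 35.8 CPM.

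Levels of different members were compared per length, as deposited RPKM values, which scale a count by gene length and library size. The mean level over the 6 cultures ranged from 2.58 RPKM for Mtif3 to 97.6 RPKM for Timm17a with a median of 21.04, and 8 members reached 50 RPKM or more while 11 were under 10. Timm17a was at 95.6 ± 4.42 RPKM in WT and 99.5 ± 6.23 in the mutant (SD, n = 3), and Timm23, next in the order, at 92.7 ± 3.00 and 92.5 ± 0.59, so the pair did not differ beyond the spread. Tomm20 followed at 75.9 ± 1.44 and 73.9 ± 2.01 RPKM. Mrpl42 led the large subunit at 61.5 ± 3.28 and 70.6 ± 0.82 RPKM, Mrps16 the small subunit at 57.0 ± 2.09 and 58.7 ± 1.44, and Tsfm the translation factors at 7.23 ± 0.21 and 7.40 ± 0.18. Per subgroup the median level was 36.0 RPKM for Tomm genes, 22.6 for the small subunit, 20.9 for Timm genes, 16.7 for the large subunit and 4.94 for the factors. Among the ribosomal proteins of both subunits the mRNA level ran from 5.42 RPKM (Mrps25) to 66.1 RPKM (Mrpl42).

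The order depends on the gene length used. The length behind the deposited RPKM was between 0.224 and 6.71 times the length of the principal mRNA in GENCODE M21, and more than 2 times it for 7 members. With the annotated mRNA length, chosen as an alternative after the data were seen, Timm23 was highest at 146 RPKM, Mrps21 was next at 121, Timm17a stood at rank 29 of 48 at 21.8, and Mrps16 stood at 13.2. Mtif3 was lowest by either length. Comparisons between genotypes use 1 length per gene and do not depend on it. The deposited RPKM carry no TMM factors, so their genotype means are on another scale than the log2 fold changes. Mrps16 and Tsfm were slightly higher in the mutant in RPKM, with log2 fold changes of -0.00 and -0.01.

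**Figure D4:**
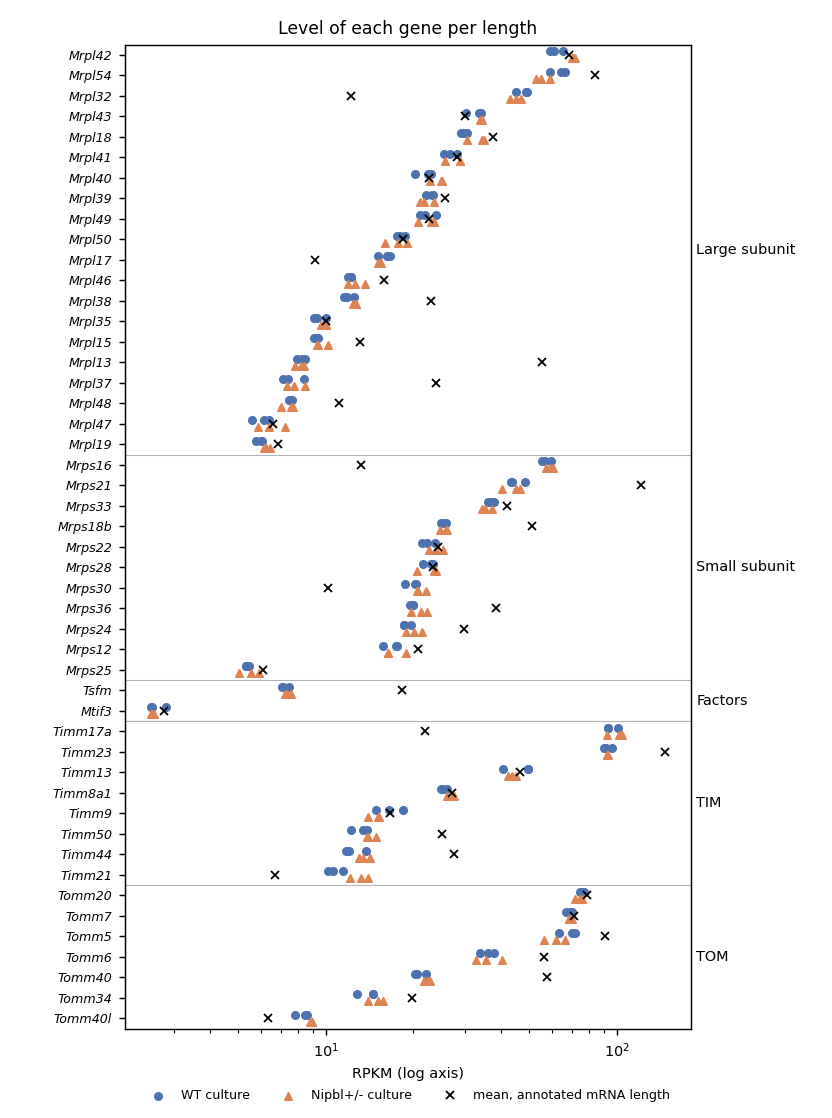
RPKM of each member in each WT culture (circles) and Nipbl+/- culture (triangles) on a log axis, with the mean recomputed for the annotated mRNA length as a cross, ordered within the 5 groups by the deposited level. Cultures of both genotypes lie close together while genes span 2.58 to 97.6 RPKM, and the crosses of Timm17a, Mrps16 and Mrpl13 lie far from their points.

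The members lay on 20 chromosomes, with at most 6 on one of them. Another minus-strand gene overlapped 6 members (Mrpl48, Mrps24, Mrps28, Timm23, Tomm20 and Tomm6), a plus-strand gene overlapped 21, and 24 overlapped neither. Since the library kit as named does not keep the strand and the strand setting of the counting is not given in the sources used here, reads from overlapping genes cannot be told apart. Mrpl54, Tomm5 and Mrpl42 overlapped no other annotated gene, whereas Timm21 overlapped a plus-strand gene. Across the 48 members the log2 fold change had a Spearman correlation of -0.32 with average expression and of 0.12 with mRNA length, over genes that share the same 6 libraries. Over all genes tested the correlation with average expression was 0.08. With mRNA length it was 0.02, over the 6934 tested genes that have an annotated mRNA.

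Genes that work alongside the members, taken from lists of known function, were also uncalled. In edgeR's quasi-likelihood test 1.04% of all genes rose and 0.916% fell, so lists this short would hold few calls at that share. Of 38 further gene entries for mitochondrial translation and ribosome assembly, 20 were tested and 0 rose or fell, with a median log2 fold change of 0.03. Among these 20 entries Nsun4 appears more than once. The outermost were Tfb1m, which methylates the small ribosomal RNA, at 5.99 ± 0.49 CPM in WT and 7.19 ± 0.77 in the mutant (log2 fold change 0.26 ± 0.14, adjusted p = 0.371), and Qrsl1, a subunit of the glutamyl-tRNA amidotransferase, with 0.20 ± 0.11. Of 30 genes of protein processing and matrix chaperones, 13 were tested and 0 called, with a median of -0.00. Lonp1, the ATP-driven protease of the matrix, came nearest to the threshold. It was at 218, 204 and 215 CPM in WT and 176, 193 and 170 CPM in the mutant, without overlap, with a log2 fold change of -0.24 ± 0.06 (adjusted p = 0.0969). For Dnlz, which keeps matrix Hsp70 soluble, it was -0.20 ± 0.08 (adjusted p = 0.242).

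The nuclear genes for subunits of oxidative phosphorylation, whose mitochondrially encoded partners the mitochondrial ribosome makes, were tested in 53 cases. None passed the threshold in edgeR's quasi-likelihood test, where 1.04% of all genes rose and 0.916% fell. At an unadjusted p below 0.05 stood 5 (9.43%, against 16.9% of all genes), all of them lower in the mutant. The median log2 fold change of the 53 genes was -0.03, with 36 below 0, beside -0.01 for all genes tested. With library size alone as the scaling the median of the 53 was 0.01 with 25 below 0, beside 0.03 for all genes tested. Uqcrq, a subunit of the cytochrome bc1 complex, was at 79.5, 82.2 and 76.6 CPM in WT and at 70.6, 68.2 and 63.9 CPM in the mutant, without overlap. Its log2 fold change was -0.23 ± 0.05 (adjusted p = 0.0690). Cox6b2, an isoform of a cytochrome c oxidase subunit, had the largest difference of the list at -0.33 ± 0.13 (adjusted p = 0.248) at a low level of 5.93 ± 0.33 CPM in WT and 4.73 ± 0.21 CPM in the mutant.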

How the data were processed

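The data were RNA-seq libraries from 3 WT and 3 Nipbl+/- cultures of MEFs, taken as biological replicates. The authors aligned reads to mm10 with TopHat2 2.0.10 and an Ensembl annotation, and deposited for each gene and culture a raw read count and an RPKM value, which divides the count by the gene's length and the library's size. The counting tool and its strand setting are not given in the sources used here. No test used RPKM. Counts were fitted over all genes with edgeR 4.0.16 (R 4.3.3; filterByExpr with a minimum count of 10, TMM factors, quasi-likelihood test, Benjamini-Hochberg adjustment, threshold 0.05). CPM values use the TMM factors. DESeq2 1.42.0 served as an alternative. In counts simulated for this comparison, 150 of 195 tested genes changed by 2-fold were recovered among 8979 genes (76.9%), with 12 false calls. Smaller changes were not simulated, so this share does not describe differences as small as those of the members.

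The members and the gene lists were chosen with earlier results of these data known. Named in full were Nipbl, the 5 members with the largest log2 fold change in each direction, the member with the highest RPKM in each of the 5 groups, the translation factors, the 2 outermost genes of each list and any gene past the threshold; Mrpl17 was added after its values were seen, as were gene names given only to mark a range. Alternatives were other scalings, filters and tests, a replicate block and leaving out each culture. The extraction protocol in the labels mentions mouse ES cells, whereas the source of all samples is given as MEFs. With 3 cultures a genotype, an exact permutation test of a single value cannot go below p = 0.1, and none is reported.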

Additional observations from a re-analysis of the deposited data

How the results depend on the processing

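Under each of 14 alternatives 0 members were called in either direction, and the 10 members named for the size of their difference kept its sign. Some alternatives called very few genes over the whole table, as given below, so 0 members says little there. The 10 members were picked as the largest differences in these same data, so their kept sign is no independent support. The median log2 fold change of the members was 0.0361 with library size alone, beside 0.0325 for all genes tested. Under the other 13 alternatives the members' median lay between -0.02 and 0.03. With library size alone, members without overlap numbered 5 higher (10.4%, against 15.7% of all genes tested) and 1 lower (2.08%, against 7.34%). With upper-quartile factors 5 members were lower (10.4%, against 12.2%). With a culture left out they were 2 to 6 higher (4.17% to 12.5%, against 15.6% to 17.9% of all genes) and 3 to 10 lower (6.25% to 20.8%, against 14.9% to 17.9%), with 10 lower without WT culture 3 or Nipbl+/- culture 2. Genes called over the whole table, 94 higher and 83 lower, became 142 higher with library size alone, 173 and 152 without the filter on low counts, 219 and 213 in edgeR's exact test, and 237 and 212 in DESeq2's Wald test. With a culture left out they ran from 1 higher and 2 lower (without Nipbl+/- culture 1) to 130 higher and 138 lower (without WT culture 2). Log2 fold changes near 0 changed sign. That of Mrps16 (-0.00) was 0.0373 with library size alone, 0.00047 without the filter, and -0.0221 to 0.00979 with a culture left out. That of Tsfm (-0.01) was 0.0292 with library size alone and -0.0430 to 0.0237 with a culture left out. That of Timm17a (0.02) was -0.0226 to 0.0766 with a culture left out. Nipbl ranged from -0.47 to -0.39. The cause of these shifts was not tested.

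Cultures with the same number did not deviate together (correlations of -0.10, -0.05 and -0.21 over 8343 genes), so the numbers were not read as pairs. With the replicate number as a block, 34 genes were higher and 52 lower over the whole table, and 0 members were called.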

Other observations

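The proteins of the cytosolic ribosome, which makes the members' own proteins, were tested for 38 genes. In edgeR's quasi-likelihood test 0 passed the threshold, while 1.04% of all genes rose and 0.916% fell. At an unadjusted p below 0.05 stood 2 (5.26%), both lower. Of all 9061 genes tested 16.9% stood there, 814 higher and 720 lower. The log2 fold changes of the 38 genes lay close together, with an SD of 0.05, a median of -0.03 and 35 of 38 below 0. With library size alone the median was 0.00 with 16 below 0, while the median of all genes tested moved from -0.01 to 0.03. Without WT culture 1 the median of the 38 genes was 0.01 with 15 below 0, beside -0.00 for all genes tested. Rplp1, an acidic stalk protein, was at 1784, 1519 and 1596 CPM in WT and at 1469, 1500 and 1426 CPM in the mutant, and Rpl13a at 1971, 1883 and 1557 CPM against 1787, 1647 and 1521 CPM. Their log2 fold changes were -0.16 ± 0.06 and -0.13 ± 0.09 (adjusted p = 0.256 and 0.544, edgeR quasi-likelihood test, Benjamini-Hochberg method).

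Of 12 factors known to regulate nuclear genes of mitochondrial proteins, the 6 on the minus strand were uncalled. Over all genes tested 1.04% rose and 0.916% fell in edgeR's quasi-likelihood test. Hcfc1, a coregulator that binds GABP, was at 141, 140 and 145 CPM in WT and at 151, 155 and 162 CPM in the mutant without overlap, with a log2 fold change of 0.14 ± 0.05 (adjusted p = 0.225). The GABP subunit Gabpb1 had a log2 fold change of 0.11 ± 0.08, Max, the partner of Myc at E-boxes, one of -0.13 ± 0.07, and Esrra, an orphan nuclear receptor, one of -0.06 ± 0.09. The coactivators Ppargc1a and Ppargc1b were below 1 CPM in each culture. The 95% intervals of their log2 fold changes ran from -0.70 to 1.25 and from -0.62 to 1.45, so changes within these bounds were not excluded.

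Among members with an annotated mRNA under 1000 bases, 7 of 11 log2 fold changes were below 0, and among longer ones 18 of 37. Among all tested genes with an annotated principal mRNA, these shares were 59.4% of 451 genes and 47.2% of 6483 genes. The pseudogenes left out of the members (Mrpl23-ps1, Mrpl48-ps, Mrps36-ps1 and Mrps36-ps2) had counts of 119 to 523 per culture and adjusted p between 0.656 and 0.984. Reads shared between such copies and their parent genes cannot be told apart, which bears on Mrpl48 and Mrps36 among the members.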
